A study of Drosophila melanogaster with 2 samples.

Results

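The 43 genes described here encode Drosophila melanogaster basic helix-loop-helix (bHLH) transcription factors outside the Enhancer of split complex. They come from a list of named genes that goes by protein class, out of 13968 protein-coding genes. Its rule uses no binding value, but the list was chosen with earlier results of these data known. Binding of Senseless-2, a zinc-finger protein and paralog of the sensory organ factor Senseless, was mapped by ChIP-seq, which sequences the DNA that comes down with a precipitated chromatin protein, in whole embryos of the sens-2-GFP strain, aged 0 to 24 h. These transgenic flies express a sens-2-eGFP fusion protein, which an anti-GFP antibody precipitated from chromatin sonicated to fragments of 200 to 800 bp. The 2 biological replicates form 1 group, and no other genotype, stage or control library was analysed here. The antibody reads the fusion protein alone, and a peak in whole embryos does not show in which cells the protein was bound.

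A bHLH protein contacts DNA through its basic region, usually at the E-box CANNTG, and pairs with a partner through its helix-loop-helix. Proneural factors such as Achaete, Scute and Atonal give ectoderm cells the capacity to become neural precursors and pair with Daughterless, while Extramacrochaetae lacks a basic region and keeps them from DNA. The bHLH-PAS proteins respond to oxygen, hormone or time of day, or set tracheal and midline fates. The hairy-related proteins repress transcription. Myc-type proteins carry a leucine zipper behind the helix-loop-helix and act in growth and metabolism. In sensory organ precursors, proneural factors switch on senseless, and Senseless in turn sustains proneural gene expression.

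Peaks were described from 3 kinds of deposited list. Ranked lists hold peaks before any threshold, and thresholded lists hold those past a threshold of the irreproducible discovery rate (IDR), with a score of at least 830. The conservative thresholded list covers both replicates and held 2883 summits on the chromosome arms, with a median signal of 78.6. The thresholded lists of single replicates held 1960 peaks in replicate 1 and 1636 in replicate 2. Of the peaks of replicate 1, 59.5% overlapped one of replicate 2, and 71.0% of the peaks of replicate 2 overlapped one of replicate 1. Signal is the authors' own value for a peak on the scale of its list, 1 value across both replicates in the conservative list, so it carries no SD. Read depth is unknown.

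Each gene was given a domain, its annotated body plus the 2 kb upstream of it. A conservative summit lay in the domain of 13 of the 43 bHLH genes (30.2%), against 17.9% of all protein-coding genes. The 13 were the bHLH-PAS genes sima, trh, gce, tai and sim, the hairy-related gene cwo, the Myc-type genes Max, Myc, Mnt, SREBP and crp, and the partner genes da and emc. None of the 10 proneural and Atonal-related genes and none of the 9 other tissue factors held one. By structural group, 5 of 10 bHLH-PAS genes, 1 of 4 hairy-related genes, 5 of 8 Myc-type genes and both genes of the E protein and Id type had a summit. Members of a group are different genes and not replicates, so these counts were not tested against each other.

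**Figure D1:**
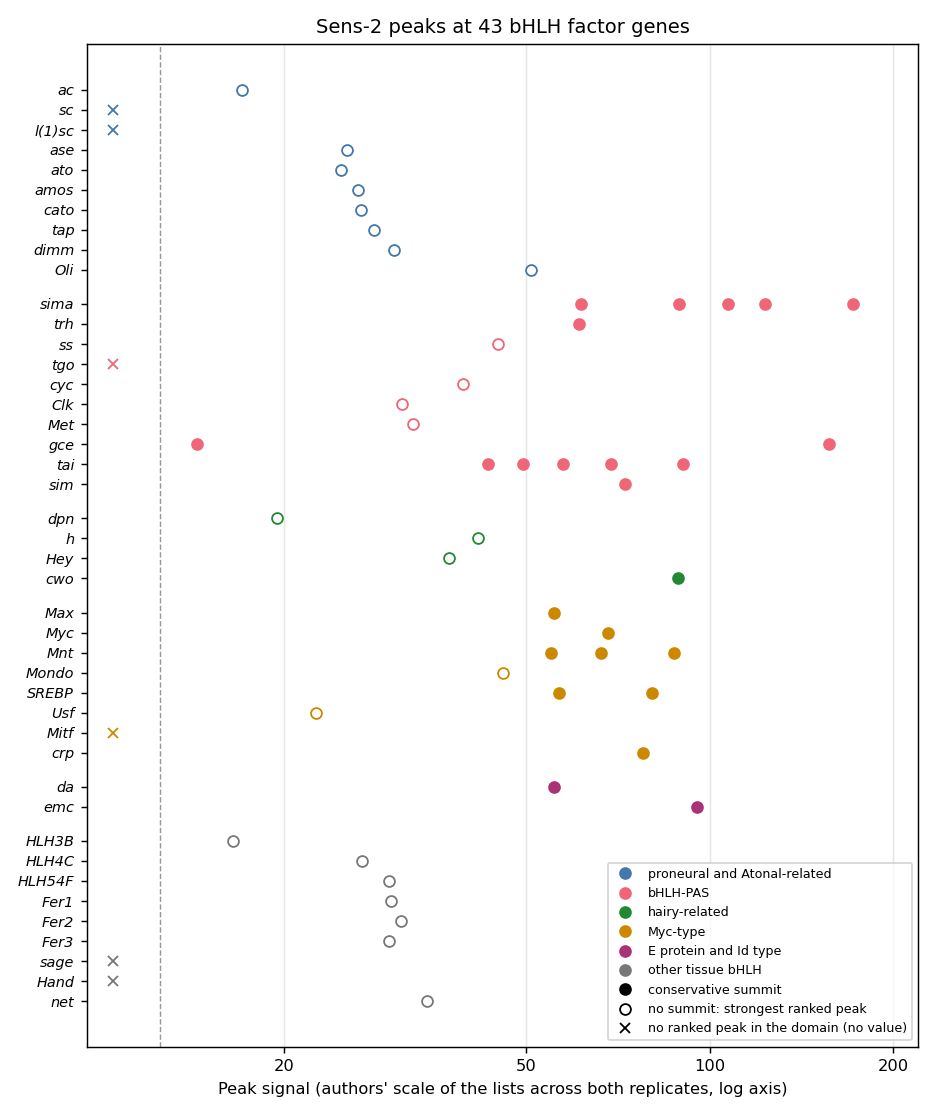
Peak signal at each of the 43 bHLH genes on a log axis, on the authors' scale of the lists across both replicates; filled circles are conservative summits in the domain, open circles the strongest ranked peak of a gene without one, and crosses left of the dashed line are genes with no ranked peak and hence no value. The 25 filled circles run from 14.4 to 172 and lie in 4 of the 6 groups, while the open circles run from 16.5 to 50.8.

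The 13 domains held 25 summits. Their signals ranged from 14.4 to 172 with a median of 68.8, against a median of 79.8 over the 2459 summits in all protein-coding domains. The median member summit stood at percentile 38.7 of the conservative list, and 10 of the 25 were in the stronger 50% of it. At 12 of the 25 (48.0%) the summit lay in a promoter, defined as within 500 bp of a transcript start of any gene, and 13 were intronic. Over all 2883 summits, 44.2% were promoter and 38% intronic, and 15.6% were intergenic. The domain rule keeps most intergenic positions out of the members' count.

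The sequence around the strongest conservative summit is shown for the 8 members with the highest conservative signals, 1 window a gene. At crp, stronger ranked peaks outside the conservative list, with signals of up to 130, are not shown. These 8 windows hold neither the Senseless core AAATCA nor an E-box, while 2 further summits of sima, with signals of 123 and 107, exceed 6 of the 8 and hold an E-box and the core. Each is the plus strand of Release 6 (dm6) from RefSeq, 5′ to 3′, with the summit base in capitals. Bases in annotated untranslated exons were left off at emc and SREBP.
sima chr3R:30061290-30061390: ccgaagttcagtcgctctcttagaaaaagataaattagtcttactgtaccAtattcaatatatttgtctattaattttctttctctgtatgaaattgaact
gce chrX:15298367-15298467: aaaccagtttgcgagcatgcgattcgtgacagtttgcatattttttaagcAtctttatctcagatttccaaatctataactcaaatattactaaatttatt
emc chr3L:749343-749399: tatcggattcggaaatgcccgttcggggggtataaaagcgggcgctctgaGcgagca
tai chr2L:9168454-9168554: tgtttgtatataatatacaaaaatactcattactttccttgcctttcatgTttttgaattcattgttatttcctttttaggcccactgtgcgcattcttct
cwo chr3R:10393847-10393947: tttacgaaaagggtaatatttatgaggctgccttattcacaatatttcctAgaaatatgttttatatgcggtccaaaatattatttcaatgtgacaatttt
Mnt chrX:3692325-3692425: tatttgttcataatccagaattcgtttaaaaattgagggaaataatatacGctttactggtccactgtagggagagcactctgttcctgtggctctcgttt
SREBP chr3L:19794326-19794390: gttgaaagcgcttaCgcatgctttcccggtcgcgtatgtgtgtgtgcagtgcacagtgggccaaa
crp chr2L:16279897-16279997: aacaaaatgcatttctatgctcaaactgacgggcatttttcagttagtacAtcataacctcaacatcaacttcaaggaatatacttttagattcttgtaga

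Of the 25 member summits, 1 had AAATCA on either strand within 50 bp on each side, against 517 of 2883 summits (17.9%) in the whole list. An E-box, CANNTG, was present at 6 (24.0%), against 36.6% of all summits. Within 25 bp on each side the order of the E-box shares turned, with 24.0% of member summits and 19.3% of all summits, while AAATCA was present at 0 member summits and 9.78% of all summits. The median GC content within 50 bp on each side was 36.6% at members and 35.6% over all summits. Within 100 bp on each side, AAATCA was present at 7 of the 25 member summits (28.0%) and at 28.7% of all summits, so the lower share at members was not seen in the wider window. The single summit with the core within 50 bp on each side lies upstream of sima and has a signal of 107. Its window is given with the core in capitals, TGATTT as it reads on the plus strand.
sima chr3R:30056656-30056756: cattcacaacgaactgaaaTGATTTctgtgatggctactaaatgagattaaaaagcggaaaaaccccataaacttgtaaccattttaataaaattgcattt

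Of the 6 E-box summits, 2 were at sima (signals 123 and 88.9), 2 at tai (57.5 and 43.2), 1 at sim and 1 at Max. The form CAGCTG occurred at 2 of 25, against 3.57% of all summits, and at no member summit did CACGTG, the site of Myc and Max and of Clock and Cycle, occur, against 0.937% of all summits. Both CAGCTG windows are shown with that E-box in capitals; they were picked after their values were seen. CAGCTG is 1 form of CANNTG and is counted under both.
sima chr3R:30092757-30092857: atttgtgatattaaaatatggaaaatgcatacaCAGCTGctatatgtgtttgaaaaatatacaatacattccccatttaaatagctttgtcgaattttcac
tai chr2L:9205181-9205281: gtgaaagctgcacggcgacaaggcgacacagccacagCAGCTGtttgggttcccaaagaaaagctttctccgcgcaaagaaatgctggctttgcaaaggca

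The bHLH-PAS genes held 14 of the 25 summits. The strongest summit was at sima (FBgn0266411), which encodes the fly counterpart of the oxygen-regulated HIF-alpha subunit. Its 5 summits had signals of 172, 123, 107, 88.9 and 61.5. The strongest, at chr3R:30061192-30061487, was intronic, 1582 bp upstream of an internal transcript start, and ranked 352 of 2883. It had a signal of 116 in the thresholded list of replicate 1 and of 52.7 in that of replicate 2. The intronic summit of 123 had 77.8 in replicate 1 and 47.6 in replicate 2. The summit of 107 lay 1605 bp upstream of sima but 153 bp from the starts of Rpp14a and CG7950, in a promoter that belongs to those genes, with 65.1 in replicate 1 and 46.8 in replicate 2. All 3 were therefore present in both thresholded lists. The intronic summit of 88.9 passed the threshold in replicate 2 alone, at 53.1, with a ranked value of 37.2 in replicate 1. The weakest passed it in neither replicate, with ranked values of 34.2 in replicate 1 and 29.2 in replicate 2.

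At tai (FBgn0041092), the coactivator of hormone receptors, 5 summits were spread over a domain of 85.4 kb, the longest among the members. Their signals were 90.2, 68.8, 57.5, 49.3 and 43.2, all below the 3 strongest at sima. The strongest was intronic, 1726 bp downstream of the first start, with a thresholded signal of 61.1 in replicate 1 and a ranked signal of 27.9 in replicate 2. The summit of 57.5 passed the threshold in replicate 2 alone, at 41.6, with a ranked value of 28.6 in replicate 1. The other 3 passed it in neither replicate. The weakest of the 5 was the one closest to a tai start, at 105 bp. The summit of 68.8, which lay nearest to the start of a tRNA gene, was absent from the other thresholded list across both replicates. A further ranked peak 216 bp from a tai start, with a signal of 58.2, had a score of 826 and so fell just under the threshold of 830.

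The juvenile hormone receptor gene gce (FBgn0261703) held the second strongest member peak, with a signal of 157 and rank 425. It lay 592 bp upstream of a gce start and 200 bp from the start of the antisense gene asRNA:CR44429, at chrX:15298269-15298564. Its signal was 101.5 in replicate 1 and 52.2 in replicate 2, both thresholded. A second conservative summit 387 bp from the gce start had a signal of 14.4, rank 2828, and overlapped the same peaks of each replicate, so it adds no separate evidence from the replicates. Met, the paralog and other juvenile hormone receptor gene, had no summit, and its strongest ranked peak had a signal of 32.6.

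sim (FBgn0004666), the master gene of the ventral midline, had 1 intronic summit with a signal of 72.7. It passed the threshold in replicate 1, at 40.2, and had a ranked signal of 35.4 in replicate 2. trh (FBgn0262139), which sets tracheal fate, had 1 summit of 60.9 at 413 bp from a start. That summit passed the threshold in neither replicate, with ranked signals of 34.4 in replicate 1 and 29.6 in replicate 2, and was absent from the other thresholded list. The bHLH-PAS genes without a summit, besides Met, were ss, a regulator of antennal and photoreceptor fate, the clock genes cyc and Clk, and tgo, the common partner of Sima, Trachealess and Single-minded. Their strongest ranked peaks had signals of 44.9 at ss, 39.3 at cyc and 31.2 at Clk, with no ranked peak at tgo in that list. The genes of both clock activators thus had no summit in their domains, of 4.17 kb at cyc and 14.4 kb at Clk. Most protein-coding genes of such lengths had none either. A summit was present at 11.1% of those with domains under 5 kb and 32.4% of those from 10 to 20 kb.

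**Figure D2:**
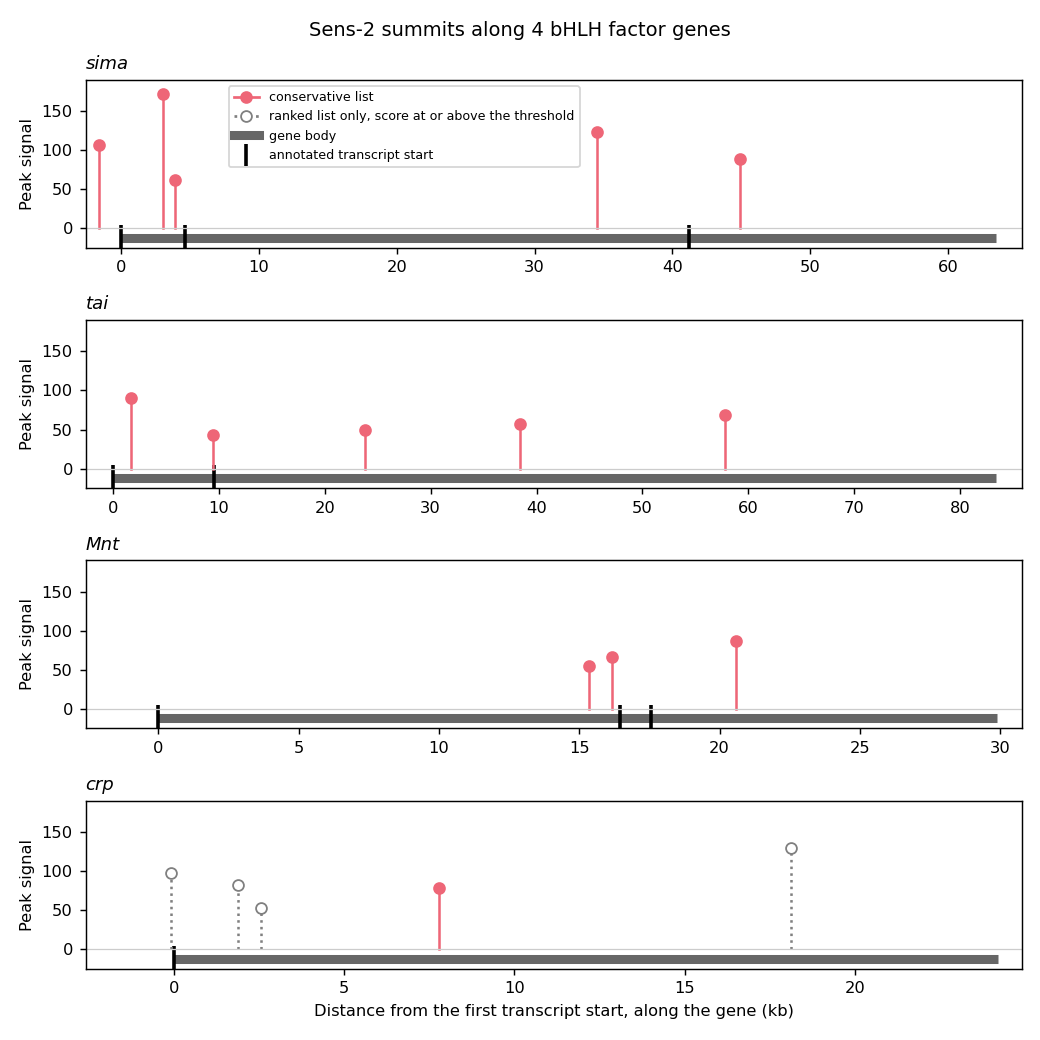
Conservative summits (filled) along sima, tai, Mnt and crp, with distance in kb from the first transcript start along the gene on the horizontal axis and peak signal on the vertical axis; open circles at crp are ranked peaks past the threshold score that the conservative list lacks. The 2 strongest sima summits lie inside the gene, the tai summits are spread over it, the 3 Mnt summits lie near its internal starts, and 1 of 5 peaks at crp is in the conservative list.

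Among the hairy-related genes, cwo (FBgn0259938), a repressor in the circadian clock, had 1 intronic summit with a signal of 88.8. It was thresholded in both replicates, at 45.9 in replicate 1 and 45.6 in replicate 2. The pair-rule and sensory repressor gene h (listed as hry in the annotation) had no summit in its domain. By the second rule, which gives each summit to the gene with the nearest transcript start, h gained a summit of 68.5 that lay intergenic and 7052 bp from its start. That summit passed the threshold in neither replicate, with ranked signals of 39.6 in replicate 1 and 22.0 in replicate 2. The neuroblast gene dpn and the Notch target Hey had no summit, and their strongest ranked peaks had signals of 19.5 and 37.3.

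The Myc-type genes held 8 summits, 5 of them in promoters and 3 in introns. Mnt (FBgn0023215), the antagonist of Myc for Max, had 3. Its intronic summit of 87.4 was thresholded in both replicates, at 50.6 in replicate 1 and 32.9 in replicate 2. The promoter summit of 66.4, 281 bp from a start, and the intronic summit of 54.9 passed the threshold in replicate 1 alone, at 47.8 and 40.4. Their ranked signals in replicate 2 were 19.1 and 24.7. All 3 thus passed the threshold in replicate 1 and 1 of them in replicate 2.

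Myc itself (FBgn0262656), the growth regulator, had 1 promoter summit, 55 bp from its start, with a signal of 68.1. It passed the threshold in neither replicate, with ranked signals of 36.9 in replicate 1 and 34.8 in replicate 2. Max (FBgn0017578), the shared partner, had 1 summit of 55.4 that lay 150 bp from its start but 70 bp from the starts of Mettl5 and CG42374. It also passed the threshold in neither, with ranked signals of 29.6 in replicate 1 and 22.4 in replicate 2. All 3 genes of the Myc, Max and Mnt network thus held a conservative summit in their domains, and by nearest start Max held none. Of all protein-coding genes with domains of 20 kb or more, as at Myc and Mnt, 44.6% had a summit. Of those under 5 kb, as at Max, 11.1% did. Among the summits of these 3 genes, those at Mnt passed the threshold in at least 1 replicate taken alone.

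SREBP (FBgn0261283), the regulator of lipid synthesis, had a promoter summit of 80.4, 405 bp downstream of its start. It was thresholded in both replicates, at 52.1 in replicate 1 and 32.2 in replicate 2. A second summit of 56.6 lay 81 bp from the starts of CG42637 and Gyc76C and was found in the ranked list of replicate 2 alone, at 30.5. It was the 1 member summit of 25 without a ranked peak in both replicates. Of the Myc-type genes without a summit, the sugar-sensing gene Mondo had a strongest ranked peak of 45.8 and Usf of 22.6. Mitf, the lysosome regulator, lies on chromosome 4, where the conservative list held 0 peaks, and had no ranked peak in either replicate.

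crp (FBgn0001994), the counterpart of vertebrate AP-4, had 1 conservative summit, intronic and 7783 bp downstream of its start, with a signal of 77.8. It was thresholded in both replicates, at 46.2 in replicate 1 and 35.0 in replicate 2. The ranked list across both replicates held 4 further peaks in the crp domain whose scores were at or above 830 but which none of the thresholded lists contained. Their signals were 130, 97.7, 81.8 and 52.2. The peak of 97.7 lay 80 bp from the crp start, with ranked signals of 50.1 in replicate 1 and 57.4 in replicate 2, and the peak of 130 had 57.0 in replicate 1 and 72.3 in replicate 2. Over the whole list 75 ranked peaks were in this position, and the 4 at crp were the only ones in a member domain. The conservative count therefore gives crp 1 of the 5 peaks that reach the score.

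Both partner genes of the proneural proteins had a summit in their domain, at emc in its own promoter and at da in that of mRpS7. At emc (FBgn0000575) it lay 7 bp from the start, with a signal of 95.2 and rank 1070. It was thresholded in replicate 2, at 55.2, and had a ranked signal of 37.9 in replicate 1. At da (FBgn0267821) the summit of 55.6 was 1580 bp upstream of the gene and 137 bp from the start of mRpS7, in a region that the domain of Cdk1 also covers. It passed the threshold in neither replicate, with ranked signals of 29.4 in replicate 1 and 24.4 in replicate 2. Counted by nearest start, da and Max lost their summits and h gained one, which left 12 members (27.9%), against 13.4% of all protein-coding genes. With only summits within 500 bp of a gene's own start counted, 8 members remained, namely trh, gce, tai, Max, Myc, Mnt, SREBP and emc, against 10.6% of all genes.

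The 10 proneural and Atonal-related genes had no thresholded peak in any list. Oli, an Olig-family gene of the nervous system, came closest, with a ranked peak of 50.8 whose score was 692, and whose signal was 28.0 in replicate 1 and 17.9 in replicate 2. The other ranked maxima were 30.3 at dimm, a regulator of neuroendocrine cells, 28.1 at the neurogenin-related tap, 26.8 at cato, 26.5 at the olfactory gene amos, 25.4 at the precursor gene ase, 24.8 at ato and 17.1 at ac. No ranked peak lay at sc or l(1)sc in the list across replicates. Of the conservative summits, 10% had signals of 52.1 or less. Measured from the edge of the domain, the nearest conservative summit lay 123 kb away at ac, 96.5 kb at sc, 83.2 kb at l(1)sc and 30.8 kb at ase. It lay 11.2 kb from the domain of ato and 6.16 kb from that of amos.

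These domains were short, with a median of 3.33 kb and 43.2 kb in all after merging. At the density of all protein-coding domains, 2.46 summits per 100 kb, they would hold 1.06 summits. A count of 0 allows up to 3, or 6.94 per 100 kb, by counting error alone, so a lower density than that of other genes was not detectable from these domains. The other tissue factors were in the same position, with 0 summits in 42.7 kb. Their strongest ranked peaks were 34.4 at the wing vein gene net, 31.1 at Fer2, 30.0 at Fer1, 29.8 at Fer3, 29.8 at the visceral muscle gene HLH54F, 26.9 at HLH4C and 16.5 at HLH3B, with none in the list across replicates at the salivary gland gene sage or the heart gene Hand. In replicate 2 alone, ranked peaks reached 17.4 at sage and 9.13 at Hand. A conservative summit lay 0.272 kb outside the HLH54F domain.

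Members with long domains held most of the summits. The bHLH-PAS domains had a median length of 22.8 kb and the Myc-type domains of 23.3 kb, against 4.16 kb over all protein-coding genes. Of the 11 members with domains of 20 kb or more, 8 had a summit, against 44.6% of all genes of that length. The 3 without one were ss, Mondo and Mitf. Of the 3 members from 10 to 20 kb, 1 had a summit (cwo), against 32.4% of such genes. Of the 11 from 5 to 10 kb, 3 had one (SREBP, da and emc), against 21.5%, and of the 18 under 5 kb, 1 did (Max), against 11.1%. Per length, the merged domains held 4.42 summits per 100 kb over all members, 4.88 in the bHLH-PAS group and 5.36 in the Myc-type group, against 2.46 over all protein-coding domains. The E protein and Id type genes had the highest density, 15.1, but from only 2 summits in 13.2 kb of short domains. Both lay upstream of the gene bodies, and in the gene bodies alone there were 0. The hairy-related genes had 3.31, from 1 summit in 30.2 kb. The part of domain length in the difference between groups was not tested.

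**Figure D3:**
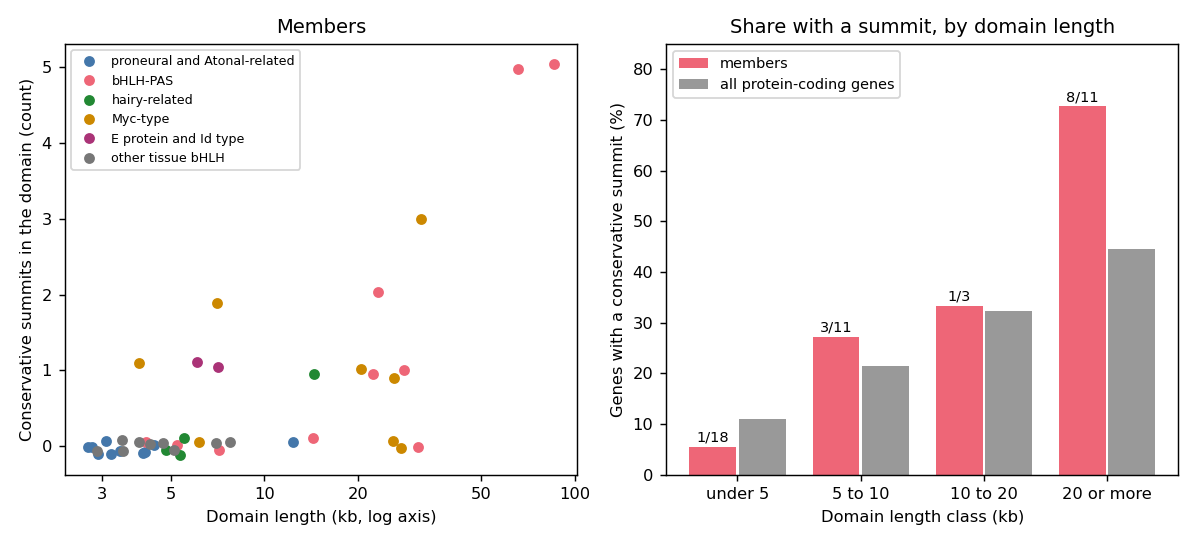
Left, conservative summits per member against domain length on a log axis in kb, coloured by group, with points shifted slightly up or down to separate them; right, the share of genes with a summit in 4 classes of domain length, with members left of all protein-coding genes and the members' counts above their bars. The share at all genes goes from 11.1% in the shortest class to 44.6% in the longest, and 8 of 11 members in the longest class have a summit.

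The replicates were compared within the member domains. In the thresholded list of replicate 1, 8 members had a summit (18.6%), against 13.5% of all protein-coding genes. In that of replicate 2, 8 members had one, against 11.9% of all genes. The 7 members in both were sima, gce, tai, cwo, Mnt, SREBP and crp, against 9.30% of all genes, with sim in replicate 1 alone and emc in replicate 2 alone. trh, Myc, Max and da were called from both replicates together and from neither alone. Of the 12 peaks of replicate 1 in member domains, 8 overlapped a peak of replicate 2 (66.7%, exact binomial 95% interval 34.9 to 90.1%). Of the 11 peaks of replicate 2, 8 overlapped a peak of replicate 1 (72.7%, interval 39.0 to 94.0%). These intervals cover counting of peaks alone and contain the shares over all peaks.

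Seen from the conservative list, 9 of the 25 member summits (36.0%) overlapped a thresholded peak in both replicates, 4 in replicate 1 alone, 3 in replicate 2 alone and 9 in neither (36.0%). The 9 in both include the 2 gce summits that share their replicate peaks. Over all 2883 summits, 40.5% overlapped a thresholded peak in both replicates and 30.1% in neither. A ranked peak was present in both replicates at 24 of the 25 (96.0%), against 98.9% over all summits.

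**Figure D4:**
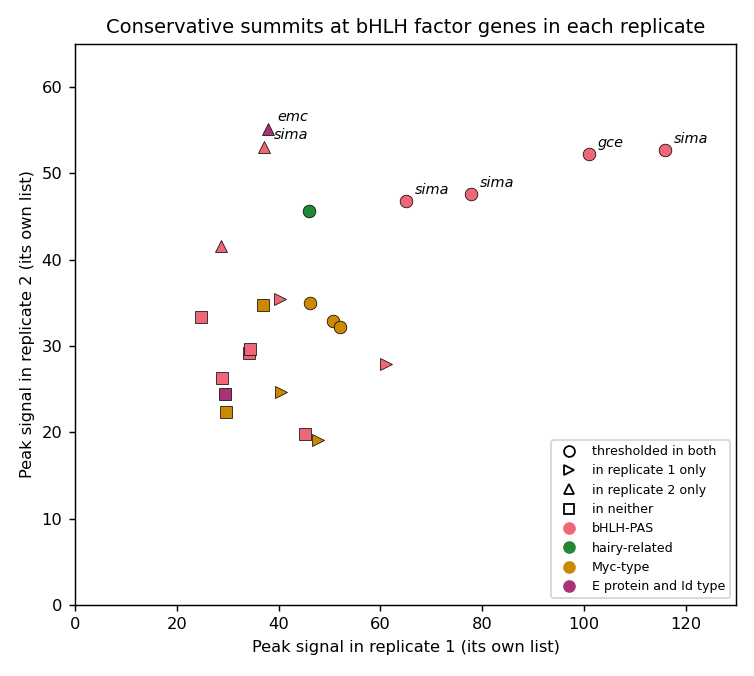
Signal of the peak that overlaps each conservative summit in the replicates' own lists, replicate 1 on the horizontal and replicate 2 on the vertical axis, each on its own scale; colour gives the group and the symbol the list in which the peak passed the threshold. Of the 25 member summits 23 are drawn, without the SREBP summit that has no peak in replicate 1 and the weak gce summit that repeats the peaks of the strong one; 3 sima peaks and the gce peak are highest in replicate 1, at 65.1 to 116, and the emc peak is highest in replicate 2, at 55.2.

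Absence from a ranked list was itself uneven between the replicates. In replicate 1, 6 members had no ranked peak in their domain (sc, l(1)sc, tgo, Mitf, sage and Hand), against 7.67% of all protein-coding genes. In replicate 2, 3 had none (ac, Usf and Mitf), against 6.11%. The achaete-scute genes sc and l(1)sc lay in a single stretch of 26.9 kb without a ranked peak in replicate 1, while replicate 2 had 1 ranked peak at sc and 2 at l(1)sc, with signals up to 11.4 and 11.7. The stretch around tgo was 17.7 kb and that around Mitf 192 kb in replicate 1. The part of coverage or mapping in these stretches was not tested. At tgo, replicate 2 had 6 ranked peaks with signals up to 19.8. Of the 6 members without a ranked peak in replicate 1, Mitf alone had none in replicate 2 either. Among all protein-coding genes, 458 of the 1071 without one in replicate 1 had none in replicate 2.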

How the data were processed

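Peak lists on dm6, per the labels, were used for 2 biological replicates, numbered as in the labels. The deposited text files describe 1 ranked and 1 thresholded list per replicate, made from that replicate's alignments, and further lists made across both; the conservative thresholded list was the main one. Neither aligner nor peak caller is named in the labels or file headers. The authors gave each peak a signal, whose scale belongs to its list, and an IDR-based score of at most 1000. The thresholded lists were derived through 1 more file, of which the deposited text gives no description.

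A summit was the peak start plus the deposited offset, 1-based. Of 2899 conservative peaks, 16 on unplaced scaffolds were left out. The gene models were those of Ensembl release 115 (BDGP 6.54), leaving out pseudogenes and transposable elements; gene h is hry there. Sequence was read from RefSeq Release 6, whose coordinates are those of dm6. Where domains overlap, a summit was counted in all of them. Replicate peaks matched when they overlapped by at least 1 bp. Motifs were searched on both strands. Intervals are exact binomial (Clopper-Pearson) from scipy 1.17.1, with pandas 2.3.3 in Python 3.11.15, and assignment of summits and overlaps was tested on simulated data. All members were named. The sequences are those of the 8 members with the highest signals (members with a summit all lie outside 2R), of every summit with AAATCA, and of 2 summits with CAGCTG added after their values were seen. The members, gene lists and motifs were chosen with earlier results of these data known. No test between conditions was possible with 1 group. Results were recomputed with the lists of single replicates, with the other thresholded list, with the stronger 50% of peaks, with other gene domains and with motif windows of 25 and 100 bp on each side.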

Additional observations from a re-analysis of the deposited data

Results flagged for a closer look

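A signal appeared outside the conservative list at 1 of the members. The ranked list across both replicates held 4 peaks in member domains with scores at or above the threshold of 830 that the conservative list lacks, all at crp, with signals of 130, 97.7, 81.8 and 52.2. With all 75 such peaks of the genome added, a choice made after seeing the data, the member domains held 29 summits in place of 25, and the number of members with a summit stayed at 13. What removed these peaks from the thresholded lists was not tested.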

How the results depend on the processing

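Of 105 alternative values, 32 moved, for shares of peaks beyond the exact 95% interval of the main share and otherwise by more than 1.5 times; the other 73 lay within these limits, among them the fall to 9 members in the gene body alone. Of the thresholded peaks of either replicate in member domains, 100% overlapped a ranked peak of the other replicate. The ranked lists hold 117153 peaks in replicate 1 and 93828 in replicate 2, before any threshold. Of all conservative summits, 98.9% had a ranked peak in both replicates, so the 100% is not particular to the members. No proneural or Atonal-related gene and no other tissue factor had a summit in any setting run. With the stronger 50% of peaks, the gene body alone or the 500 bp limit, this was fixed in advance, since these settings can only remove summits. With each replicate's own list in place of the conservative one, 8 members had a summit in both cases (main value 13), the summits in member domains numbered 11 to 12 (main 25), the share of all genes was 11.9 to 13.5%, and the groups had 3 to 4 bHLH-PAS, 3 Myc-type and 0 to 1 E protein and Id type genes. In the stronger 50% of the list by signal, 7 members held 10 summits, with 3 bHLH-PAS, 2 Myc-type and 1 E protein and Id type gene, and the share of all genes was 10.9%. Within 500 bp of a start, 8 members held 9 summits, with 3 bHLH-PAS, 0 hairy-related and 1 E protein and Id type gene, against 10.6% of all genes. In the gene body alone, 3 Myc-type and 0 E protein and Id type genes were left, and 8.56% of all genes. By nearest start, 2 hairy-related genes (h and cwo) and 1 E protein and Id type gene had one. AAATCA was present at 0% of member summits within 25 bp on each side, against 9.78% of all summits, and at 28.0% within 100 bp, against 28.7%. CANNTG was present at 56.0% of member summits within 100 bp, against 61.5%, and at 24.0% within 25 bp, against 19.3%. The other thresholded list gave 12 members, without trh, against 19.1% of all genes, and a domain with 5 kb upstream gave 13, against 23.6%; the members' share was 1.46 times and 1.28 times that of all genes, where the main ratio was 1.69. The cause of these moves was not tested, beyond fewer summits in shorter lists or domains by construction. No paired analysis was possible because there is 1 group. Peak lists give no read depth, so a gene without a summit may hold binding too weak to pass the threshold.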

Other observations

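Of 52 genes related to these factors by partner or pathway, chosen with earlier results of these data known, 21 had a conservative summit in their domain, against 17.9% of all protein-coding genes. The corepressor genes gro, HDAC1 and CtBP, which serve hairy-related repressors, had summits of up to 271, 111 and 66.9, 3 of 4 in that list. In the circadian loop, vri, a repressor of Clk transcription, had 4 summits of up to 127, Pdp1 reached 96.1 and dco 56.7, while per, tim and cry had none. Among genes of sensory precursors, 4 of 9 had a summit, with chn at 194, neur at 139, phyl at 89.7 and ttk at 63.0. Of 8 further helix-loop-helix genes, 5 had one. They were the muscle gene nau at 81.2, kn at 66.6 and the tracheal fusion gene dysf at 66.3, with the Mondo partner gene bigmax at 55.8 and the mesoderm gene twi at 51. The lists for downstream processes were too small to compare with the 17.9% of all protein-coding genes. In a list of 3 to 5 genes, 1 gene with a summit is enough to exceed that share. A summit was present at 1 of 3 genes in the hypoxia response (Ldh, 122) and 1 of 5 in the juvenile hormone response (Kr-h1, 74.2). The same held for 2 of 8 Myc partners and regulators (brat at 199 and ago at 63.8), 1 of 5 genes in SREBP processing (ACC, 54.7) and 1 of 4 tracheal genes (rho, 47.1). These lists differ in gene length and were not tested.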
